A study of Mus musculus with 8 samples.

Results

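The major urinary protein (Mup) genes are described here in mouse white adipose tissue, as a family of 9 genes: Mup1, Mup2, Mup3, Mup4, Mup5, Mup17, Mup18, Mup19 and Mup20. Their probes were found by matching each probe's accession to a gene symbol, which gave 11 of the 55681 probes that are not controls. Of these, 10 were well above background and 1 of the 2 Mup4 probes was not, and all 9 genes kept at least 1 probe among the 25141 gene names measured. The members were chosen because of how they differed between the genotypes in these samples, so that difference is described and carries no test.

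Samples came from 4 Ad/NICD mice and 4 wild-type (WT) mice, all 5 weeks old, of a 129 × C57BL/6 background and on regular chow. Ad/NICD mice overexpress the Notch1 intracellular domain, the active part of the Notch1 receptor. Each of the 4 arrays carried 1 Ad/NICD and 1 WT sample with the same replicate number, since the scanner tables of same-numbered samples were identical. The sources used here do not give the promoter of the transgene, the depot sampled, sex, or any pooling of mice. Nothing says what else same-numbered mice share, so the spread given is that between these samples and may be partly technical.

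Red over green was read as Ad/NICD over WT, which is the likely direction and not a settled one. The 4 Ad/NICD columns of the authors' value table held the red (Cy5) channel and the 4 WT columns the green (Cy3) channel. The labelling protocol gives Cy3 to controls, whereas the dye tag of each sample gives Cy3 to Ad/NICD and Cy5 to WT. If the tags were right, every sign and every pair of levels below would change places. No array had its dyes swapped, so dye and genotype cannot be told apart.

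Major urinary proteins are small secreted lipocalins, barrel-shaped carriers of hydrophobic ligands. They are best known from the liver, which releases them into blood for excretion in urine, where they carry pheromones. Some are also made in salivary, lacrimal and nasal glands and in fat, and hepatic Mup genes are known to respond to growth hormone through STAT5, to androgens and to glucocorticoids. The genes lie close together on chromosome 4 as related copies, some of them near-identical. A probe for a given copy may bind the transcripts of others, which was not checked because probe sequences were not at hand. The probes are therefore read as a shared family signal, and the level of one probe is not set against that of another.

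The likeness of the copies is visible upstream of their start sites. RefSeq start-site windows of GRCm38.p6 were at hand for 6 of the 9 members (Mup2, Mup3, Mup4, Mup17, Mup18 and Mup19). The windows of Mup3 and Mup4 are printed because these genes had the largest and the smallest genotype difference of the 6, as described below. In addition, no base of these windows lies inside the annotated gene. Each is the 250 bases before the start site on the minus strand, 5′ to 3′, at chr4:62087318-62087567 for Mup3 and chr4:59960668-59960917 for Mup4. Capitals near the end of each window mark TATATAA, letters bound by the TATA-binding protein where transcription starts. In Mup3, capitals further upstream mark TGGGAA, the core of sites for RBPJ, the partner through which the Notch intracellular domain reaches DNA.
Mup3: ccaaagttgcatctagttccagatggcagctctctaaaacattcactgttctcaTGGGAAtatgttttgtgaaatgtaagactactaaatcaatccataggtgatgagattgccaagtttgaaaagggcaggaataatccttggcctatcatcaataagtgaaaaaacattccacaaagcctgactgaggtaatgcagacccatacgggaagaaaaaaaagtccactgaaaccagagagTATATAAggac
Mup4: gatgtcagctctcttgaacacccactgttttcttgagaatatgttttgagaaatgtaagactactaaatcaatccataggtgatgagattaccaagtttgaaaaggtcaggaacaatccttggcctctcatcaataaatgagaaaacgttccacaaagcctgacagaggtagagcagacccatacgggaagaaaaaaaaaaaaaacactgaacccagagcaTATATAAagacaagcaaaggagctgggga

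All 6 windows held TATATAA, which was chosen after the windows were seen and which 3.26% of 27025 RefSeq windows of this length held. The 30 bases that end with it show how little the copies differ at this point.
Mup2: aaaaacccgctgaacccagagagTATATAA
Mup3: aaaagtccactgaaaccagagagTATATAA
Mup4: aaaaaaacactgaacccagagcaTATATAA
Mup17: aaaaacccgctgaacccagagagTATATAA
Mup18: aaaaaaacactgaacccagagagTATATAA
Mup19: aaaaacccgctgaacccagagagTATATAA
These stretches lie at chr4:60139877-60139906, chr4:62087322-62087351, chr4:59960690-59960719, chr4:61595851-61595880, chr4:61674116-61674145 and chr4:61782249-61782278, in the order of the lines. Mup2, Mup17 and Mup19 had the same 30 letters. Over the alignable part of the 250 bases, identity between members ran from 87.3% (Mup3 with Mup18 and with Mup19) to 99.2% (Mup2 with Mup17). For Mup2, Mup17, Mup18 and Mup19 the start site of the window lay inside the annotated gene, by 121, 33, 38 and 131 bases.

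Searched on both strands, TGGGAA was in 4 of the 6 windows (Mup2, Mup3, Mup17 and Mup18) and in 21.5% of all windows. The 6 windows are related copies and so are not 6 separate observations. Mean log2 ratios of Ad/NICD over WT were -2.08, -2.99, -2.34 and -2.41 for those 4 members. They were -1.96 for Mup4 and -2.17 for Mup19, which lack these letters, and any relation to the letters was not tested. The STAT5 letters TTCNNNGAA were in 0 of 6 and in 7.18% of all, and the C/EBP letters TTGCNNAA were in 0 of 6 and in 9.55% of all. The glucocorticoid receptor core AGAACA was in 1 of 6 (Mup3, on the minus strand) and in 16.2% of all. A match is a description of letters, and its absence speaks only of these 250 bases.

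Median foreground of a spot lay between 34 and 43.5 in the 4 Ad/NICD (red) channels over a background of 19 to 20, and between 72 and 88.5 in the 4 WT (green) channels over 45 to 46. The share of spots that cleared background was 58.1% to 68.6% per sample. With 4 arrays, precision is set by the number of arrays. Of the 25141 gene names, 12 passed an adjusted p of 0.05 in limma's fit of the 4 within-array log2 ratios with Benjamini-Hochberg adjustment, 7 higher and 5 lower in Ad/NICD. That number came to 43 without replicate 4 and to 0 without any one of the other replicates, and 3828 names had an unadjusted p under 0.05.

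Mup signal in WT fat was among the brightest on the arrays. The Mup19 spot of the WT channel was the brightest of all 55681 probes in replicates 1, 2 and 3, and 3 probes were brighter in replicate 4. The same spot had 431, 717, 488 and 166 brighter probes in the Ad/NICD channels of replicates 1 to 4. Brightness also depends on how well a probe binds, so this rank does not order transcripts.

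The raw spot makes the size of the signal plain. Median foreground of Mup19 was 17053, 16879, 18187 and 31790 in Ad/NICD replicates 1 to 4, over a local background of 17 to 18. In WT replicates 1 to 4 it was 194629, 189812, 160858 and 61786, over a local background of 34 to 38. In raw foreground, the WT samples of replicates 1 to 3 stood together, and the WT sample of replicate 4 had the smallest WT signal but still more than any Ad/NICD sample. Red and green raw values differ in scale, as the channel medians above show.

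As log2 signal after normalisation, Mup19 measured 14.45, 14.23, 14.40 and 15.33 in Ad/NICD replicates 1 to 4 and 16.61, 17.26, 17.06 and 16.18 in WT replicates 1 to 4. The groups did not overlap. All levels below are on this scale, and within-array ratios are log2 of Ad/NICD over WT, so that a negative ratio means less signal in Ad/NICD fat.

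**Figure D1:**
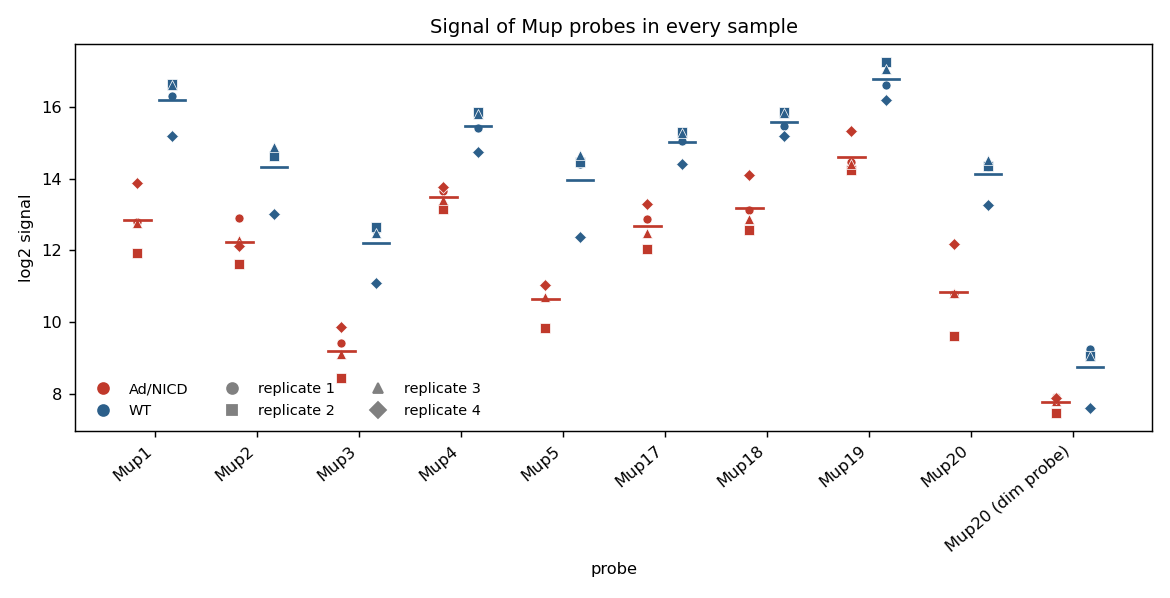
Log2 signal (vertical axis) of the 10 Mup probes above background (horizontal axis) in each Ad/NICD sample (red, left) and each WT sample (blue, right), with the symbol giving the replicate and the bar the mean of 4 samples. For 9 of the 10 probes every Ad/NICD sample lies below every WT sample, and the WT diamond (replicate 4) is the lowest WT point of all 10.

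Mup1, which encodes a secreted Mup that has also been studied as a regulator of glucose metabolism, had the largest mean difference of the members. Its log2 signal was 12.78, 11.94, 12.76 and 13.88 in Ad/NICD and 16.29, 16.64, 16.60 and 15.19 in WT, with no overlap. The within-array ratios were -3.51, -4.71, -3.84 and -1.31, with a mean of -3.34 ± 1.45 (SD, n = 4), or 10.1-fold lower in Ad/NICD. Without replicate 4 the mean was -4.02.

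Mup5, known also from glands of the head, measured 11.04, 9.84, 10.70 and 11.04 in Ad/NICD and 14.40, 14.47, 14.64 and 12.36 in WT. Its ratios were -3.36, -4.63, -3.94 and -1.32 (mean -3.31 ± 1.43, SD, n = 4; -3.98 without replicate 4). The lowest WT sample, replicate 4, was still above the highest Ad/NICD sample.

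Mup20 encodes darcin, the urinary pheromone of male mice that attracts females, and had 2 probes. Its bright probe measured 10.79, 9.62, 10.81 and 12.16 in Ad/NICD and 14.33, 14.34, 14.51 and 13.28 in WT, again without overlap. The ratios of that probe were -3.54, -4.72, -3.69 and -1.11 (mean -3.27 ± 1.53, SD, n = 4; -3.98 without replicate 4). Its dim probe disagreed with it in replicate 4.

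The dim Mup20 probe measured 7.91, 7.47, 7.80 and 7.90 in Ad/NICD and 9.26, 9.06, 9.05 and 7.61 in WT. It was lower in Ad/NICD on arrays 1 to 3 (ratios -1.35, -1.59 and -1.25) and higher on array 4 (0.29). It is the only one of the 10 probes whose groups overlapped.

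Mup3, whose promoter letters are the least like those of the other members, measured 9.42, 8.43, 9.12 and 9.86 in Ad/NICD and 12.57, 12.65, 12.49 and 11.08 in WT. Its ratios were -3.14, -4.22, -3.37 and -1.22 (mean -2.99 ± 1.27, SD, n = 4; -3.58 without replicate 4). The groups were separate, and array 4 again had the smallest difference.

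The other 5 members had smaller ratios of the same sign. Mup18 measured 13.14, 12.56, 12.88 and 14.11 in Ad/NICD and 15.46, 15.86, 15.81 and 15.19 in WT, with a mean ratio of -2.41 ± 0.97 (SD, n = 4). Mup17, whose window differs from that of Mup2 in few letters, measured 12.86, 12.03, 12.47 and 13.30 in Ad/NICD and 15.05, 15.30, 15.26 and 14.41 in WT, with a mean ratio of -2.34 ± 0.93 (SD, n = 4). The 4 Ad/NICD samples of each lay below all 4 WT samples.

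Mup19, the brightest spot, had ratios of -2.16, -3.03, -2.65 and -0.85 (mean -2.17 ± 0.95, SD, n = 4). Mup2 measured 12.91, 11.62, 12.28 and 12.12 in Ad/NICD and 14.71, 14.64, 14.88 and 13.01 in WT, and its groups were apart by only 0.1 at their closest (12.91 in Ad/NICD replicate 1 and 13.01 in WT replicate 4). Its mean ratio was -2.08 ± 0.94 (SD, n = 4). Mup2 thus came nearest to overlapping among the 9 probes whose groups were separate.

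Mup4, a member known also from nasal and lacrimal glands, measured 13.66, 13.15, 13.41 and 13.76 in Ad/NICD and 15.41, 15.87, 15.79 and 14.75 in WT. Its mean ratio, -1.96 ± 0.76 (SD, n = 4), was the smallest of the members, at 3.88-fold lower in Ad/NICD. Its other probe was not well above background in any of the 8 samples and gives no fold.

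As one family signal, the mean over the 10 probes was 11.90, 11.09, 11.66 and 12.35 in Ad/NICD replicates 1 to 4 and 14.41, 14.61, 14.61 and 13.31 in WT replicates 1 to 4. The groups were 11.75 ± 0.52 in Ad/NICD and 14.23 ± 0.63 in WT (SD, n = 4 each). The array ratios were -2.51, -3.52, -2.94 and -0.96, that is 5.71, 11.48, 7.69 and 1.95-fold lower in Ad/NICD.

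Over the 4 arrays the family ratio was -2.48 ± 1.10 (SD, n = 4), or 5.60-fold lower in Ad/NICD. Without replicate 4 it was -2.99 ± 0.51 (SD, n = 3), or 7.96-fold lower. In bulk tissue, fewer cells of a type and less RNA per cell cannot be told apart.

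None of the 9 members was among the 12 names past the adjusted p of 0.05 (0 of 9, against 0.0477% of all names in either direction). All 9 lay without overlap below WT when each was read by its brightest probe, against 5.58% of all names, and all 9 were lower on each of the 4 arrays, against 13.3%. By mean ratio, Mup1, Mup5, Mup20 and Mup3 ranked 2, 3, 4 and 7 from the lowest of 25141 names, and Mup4 ranked 29, a level that 0.115% of names reached. The members were selected on this contrast, so nothing is read from these counts.

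**Figure D2:**
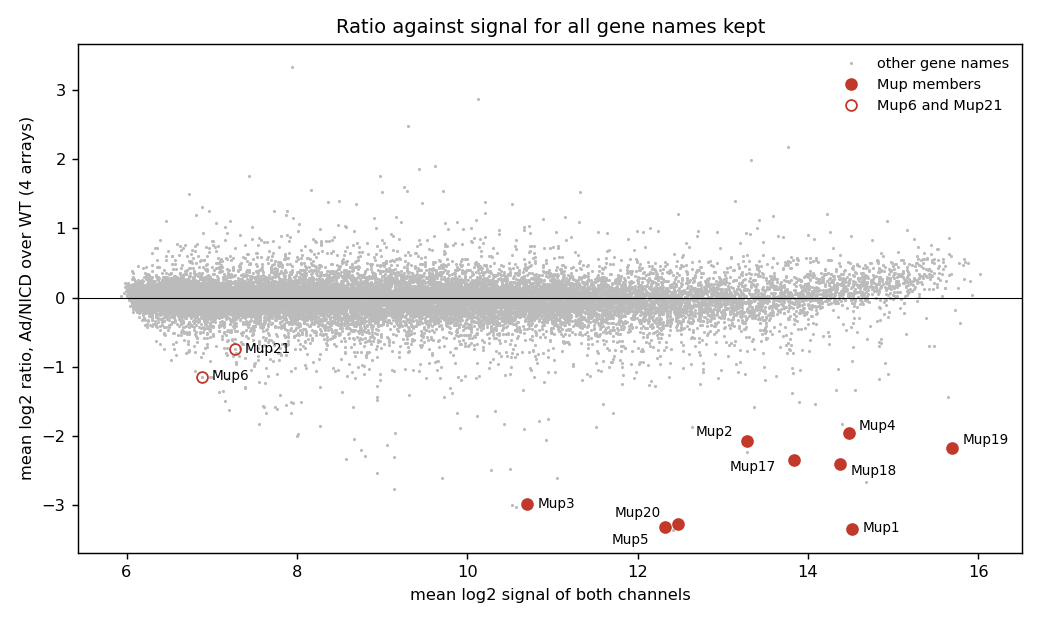
Mean log2 ratio of Ad/NICD over WT on 4 arrays (vertical axis) against mean log2 signal of both channels (horizontal axis) for 25141 gene names. The 9 Mup members (filled red) have mean ratios between -3.34 and -1.96 at signals where nearly all other names lie close to 0, and Mup6 and Mup21 (open red) lie at low signal.

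Loess on brightness reduces a general shift of bright spots. The median ratio of the 252 brightest gene names (1% of all, 14.84 and above on the log2 scale) was 0.27 after it, and no general shift is read from this value. Of these names, 3 had a mean ratio under -1, including 1 Mup (Mup19), and 5 were lower in Ad/NICD on all 4 arrays (1.98%). With every Mup probe at weight 0 in the loess curve, an alternative added after the data were seen, the family ratio was -2.49.

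The ratio differed between members in a regular way. Mup1, Mup3, Mup5 and bright Mup20 averaged -3.39, -4.57, -3.71 and -1.24 on arrays 1 to 4, whereas Mup2, Mup4, Mup17, Mup18 and Mup19 averaged -2.05, -3.07, -2.67 and -0.99. The difference between these sets was -1.34, -1.50, -1.04 and -0.26 (mean -1.04 ± 0.55, SD, n = 4), and their ranges did not overlap on any array. The dim Mup20 probe was in neither set, and its ratio lay above both ranges on each array. The sets were drawn after their ratios were seen and get no test, and with the scanner's processed signals they overlapped on array 4.

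**Figure D3:**
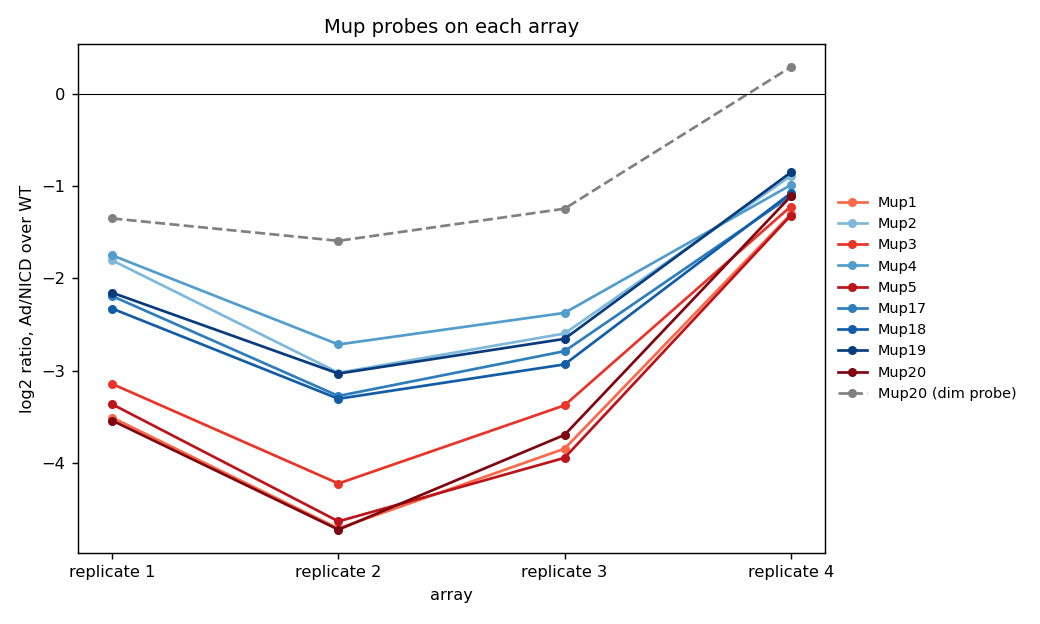
Log2 ratio of Ad/NICD over WT (vertical axis) of each of the 10 Mup probes on the 4 arrays (horizontal axis), with lines only to join a probe's values. The red set (Mup1, Mup3, Mup5, bright Mup20) lies below the blue set (Mup2, Mup4, Mup17, Mup18, Mup19) on each array, every probe comes closest to 0 on array 4, and the dim Mup20 probe (grey) reaches 0.29 there.

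Mup6 and Mup21, 2 more genes of the family, were on the array with 1 probe each and low signal. Mup6 was well above background in 4 of 4 WT samples but in only 2 of 4 Ad/NICD samples, so its Ad/NICD levels are partly at background. Mup6 measured 6.65, 6.11, 6.28 and 6.15 in Ad/NICD and 7.95, 7.71, 7.57 and 6.54 in WT, with a mean ratio of -1.14 ± 0.52 (SD, n = 4). Mup21 measured 7.02, 6.62, 6.89 and 7.03 in Ad/NICD and 8.12, 7.83, 7.76 and 6.85 in WT, with a mean ratio of -0.75 ± 0.64 (SD, n = 4). In both, the 2 groups overlapped through replicate 4.

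Replicate 4 stood apart for the whole family. WT replicate 4 was the lowest WT sample for 10 of 10 Mup probes (31.7% of all names), and Ad/NICD replicate 4 was the highest Ad/NICD sample for 8 of 10 (32.2%). After loess, the order of arrays from largest to smallest difference was 2, 3, 1, 4 for 9 of the 10 probes. This order depended on the processing. With median centring in place of loess, arrays 1 and 3 changed places for some probes, such as Mup1 (-4.29, -4.90, -4.01 and -1.20). Others kept the order, such as Mup2 (-2.65, -3.29, -2.85 and -0.93). Array 4 still had the smallest difference for each of the 10 probes. The share of all names with this order was not counted. Ad/NICD replicate 2 was the lowest Ad/NICD sample for 10 of 10 (18.9%). Since the probes share samples and may share transcripts, these are not 10 separate observations.

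Both samples of pair 4 carried the expression pattern of male mice, and the other 6 samples that of females. Xist, which is transcribed from the silenced X chromosome of females, measured 10.15, 10.22, 10.45 and 5.87 in Ad/NICD and 10.19, 10.27, 10.25 and 6.12 in WT. The Y-linked Ddx3y, an RNA helicase gene, measured 5.86, 5.82, 5.76 and 9.55 in Ad/NICD and 5.83, 5.80, 5.75 and 9.96 in WT. With a single pair of this pattern, sex, array and individual mice cannot be told apart in the smaller Mup difference of replicate 4.

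Markers of other tissues also moved with pair 4. The mammary epithelium list (keratins, Epcam, Elf5 and milk protein genes, 12 of 14 measured) had a mean log2 signal of 9.25, 8.96, 10.19 and 6.68 in Ad/NICD and 10.09, 10.19, 10.02 and 6.38 in WT, with WT replicate 4 lowest for 12 of 12 genes. The median ratio of this list was -0.83, -1.35, 0.25 and -0.003 on arrays 1 to 4, where the Mup ratio was -2.51, -3.52, -2.94 and -0.96. In pair 4 several of these genes were near background in both samples, such as Krt8 (5.97 in Ad/NICD and 5.98 in WT) and Elf5 (5.91 and 5.95). Ltf was an exception in Ad/NICD (9.10 and 6.29). The list median on array 4 therefore says little about genotype. The skeletal muscle list (15 of 15 measured) ran the other way, at 7.03, 7.32, 7.09 and 8.53 in Ad/NICD and 7.59, 8.79, 7.58 and 11.05 in WT. The part of either tissue in the Mup signal of replicate 4 was not tested.

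Hepatocyte markers were examined because the liver is the main known source of Mup transcripts. Of 24 listed genes, 12 were measured, and 5 (Apoa1, Apob, Apoh, Ttr and Cyp2c29) were above background in 0 of 8 samples. Serum albumin (Alb) was low, at 6.80, 6.76, 6.53 and 6.77 in Ad/NICD and 7.46, 8.70, 7.35 and 7.65 in WT. The mean log2 signal over the measured list was between 8.47 and 8.73 in Ad/NICD and between 8.87 and 9.88 in WT.

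No hepatocyte gene passed the test, and 10 of 12 had a ratio below 0, with a median of -0.90 against -0.01 for all names. Apoc3, an inhibitor of lipoprotein lipase, had ratios between -2.32 (array 2) and -0.998 (array 4) (mean -1.66, SE 0.22, limma adjusted p = 0.114). Transferrin (Trf), the iron carrier, had ratios of -1.76, -1.74, -1.71 and -0.14 (mean -1.34, SE 0.31, limma adjusted p = 0.169). With the array as a random block, limma adjusted p was 0.0150 for Apoc3 and 0.0438 for Trf, which changes both calls. Fibrinogen beta chain (Fgb) had ratios of -2.10, -2.31, -1.60 and 0.07, and was above background in 3 of 4 WT samples.

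In the adipocyte list, 26 of 26 genes were measured and 22 had a ratio below 0, with a median of -0.63. Only Acvr1c, a receptor for activins and growth differentiation factors that is enriched in adipocytes, passed the test, so 1 of 26 fell and none rose (0.0199% and 0.0278% of all names). It measured 9.43, 8.88, 8.97 and 9.74 in Ad/NICD and 10.82, 10.80, 10.88 and 11.37 in WT. Its mean ratio was -1.71 (SE 0.11, limma adjusted p = 0.0399). This call was lost wherever limma called 0 names in all, that is with median centring, with trend and robust settings, with no filter on dim probes and without replicate 1, 2 or 3. Adding the array as a random block to a fit of separate channels gave 4 calls in this list, all lower. That fit called 284 of all 25141 names lower. With no replicate block, 2 genes of this list and 156 of all names were called lower.

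The median ratio of the adipocyte list was -0.33, -1.17, -1.09 and -0.14 on arrays 1 to 4. This is the array order that the Mup family had after loess, at a smaller size. The list of lipocalins and small-ligand carriers described below had this order too, with medians of -0.18, -0.81, -0.57 and -0.04. Among examples taken after their values were seen, Adipoq, the adipokine adiponectin, had ratios of -1.03, -1.23, -1.67 and 0.15. Resistin (Retn) had ratios of -1.40, -2.61, -2.72 and -0.61, and adipsin (Cfd), a complement protease, had -1.47, -1.63, -2.51 and -0.13. Those of Acvr1c stayed between -1.92 and -1.40 on all 4 arrays, without the smaller value on array 4 that the Mup family, Adipoq, Retn and Cfd had.

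Other adipocyte genes, also picked after their values were seen, had ratios near 0 where the Mup ratios were large. Pparg, the regulator of fat cell differentiation, had ratios of 0.14, 0.28, -0.24 and 0.18, and leptin (Lep) had 0.13, 0.42, 0.24 and -0.04. Fabp4, the fatty acid carrier of adipocytes, measured 15.60, 15.11, 15.19 and 15.33 in Ad/NICD and 15.07, 15.39, 15.29 and 14.96 in WT, with full overlap. In WT, replicate 4 was the lowest sample for 6 of 26 adipocyte genes (31.7% of all names), against 10 of 10 Mup probes. In Ad/NICD, replicate 4 was the highest sample for 17 of 26 (32.2% of all names), against 8 of 10 Mup probes.

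**Figure D4:**
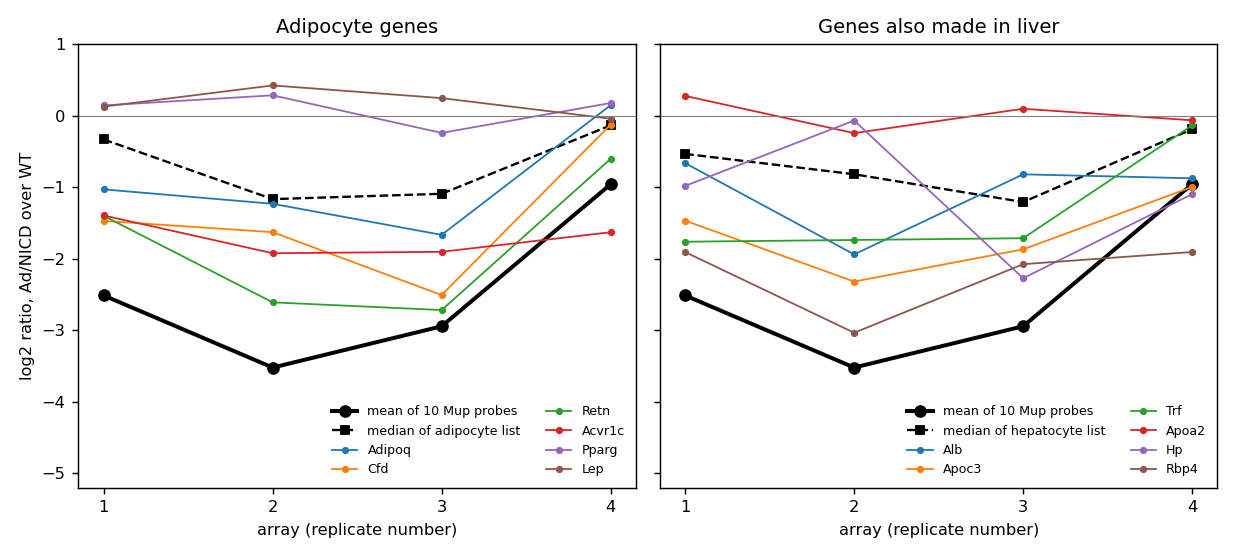
Log2 ratio of Ad/NICD over WT (vertical axis) on arrays 1 to 4 (horizontal axis) for the mean of 10 Mup probes (thick black), for list medians (dashed) and for single genes of the adipocyte list (left) and of the hepatocyte and lipocalin lists (right). Retn and Cfd come closer to 0 on array 4 as the Mup mean does, Pparg and Lep stay near 0, and Acvr1c and Rbp4 keep their size on array 4.

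Likeness to the Mup mean was measured as Pearson's r over the 8 samples. Because the genotypes differ, such an r partly restates the genotype difference, and same-numbered samples share an array. The r of deviations from the genotype means is given beside it, with and without replicate 4 (8 and 6 samples). An r above 0 was found for 23 of 26 adipocyte genes over 8 samples, for 21 as deviations and for 18 as deviations without replicate 4. The share over all names was not counted. Over 8 samples, r was also above 0 for every measured gene of the endothelial list (lowest 0.38, Cdh5). The same held for the skeletal muscle list (lowest 0.10, Casq1), whereas genes such as Itgam of the macrophage list (-0.73) were below 0. An r above 0 was therefore not particular to adipocyte genes.

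Adipoq had r = 0.94 (Spearman's rho 0.93), with 0.84 as deviations and 0.08 once replicate 4 was left out. Cfd had r = 0.92 (rho 0.90), with 0.69 as deviations and -0.08 without replicate 4. For these adipokines the likeness within genotypes thus rested on replicate 4. Retn had r = 0.91 (rho 0.95), with 0.62 as deviations and 0.66 without replicate 4, and Cidec, a lipid droplet protein, had 0.92 (rho 0.95), 0.79 and 0.67. Genes of other lists had a higher r than Adipoq (0.937), which had the highest r of the adipocyte list. From the hepatocyte list, Apoc3 had 0.975 (0.81 as deviations, 0.69 without replicate 4) and Trf 0.943 (0.73 and -0.32). Amy1 of the salivary and lacrimal list had 0.955 (0.69 and -0.14), and Rbp4 of the lipocalin list 0.953 (0.60 and 0.80). The genes named for their likeness were picked after these values were seen.

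Lep stood at the other end, with r = -0.68 (rho -0.60), -0.72 as deviations and -0.85 without replicate 4. Pparg had r = -0.30 (rho -0.14), -0.18 as deviations and -0.61 without replicate 4. A single relation of the Mup signal to adipocyte genes did not therefore describe the list.

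Among other lipocalins and small-ligand carriers, 13 of 20 genes were measured, 11 had a ratio below 0 and the median was -0.23 (-0.60 without replicate 4). None passed the test. Rbp4, the retinol carrier and an adipokine, measured 12.44, 11.90, 12.44 and 11.92 in Ad/NICD and 14.35, 14.93, 14.51 and 13.83 in WT, without overlap. Its ratios were -1.91, -3.03, -2.08 and -1.91 (mean -2.23, SE 0.21, limma adjusted p = 0.0876). With array taken as a random block, its limma adjusted p was 0.00815, which changes the call.

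Rbp4 kept its size on array 4, where the Mup ratio was smaller, and this difference was not tested. Orm3, an acid glycoprotein gene of the same fold, had ratios of -0.78, -2.55, -1.15 and -0.98 (mean -1.37, SE 0.31, limma adjusted p = 0.168). C8g and Fabp1, with mean ratios of -0.40 and -0.23, did not pass either.

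For the regulators known from liver, 14 of 17 genes of the growth hormone and STAT5 list were measured. None passed the test, 7 had a ratio below 0 and the median was -0.002. Socs2, a target and inhibitor of growth hormone signalling, had ratios of 0.46, 1.21, 1.21 and 0.15 (mean 0.76, SE 0.21, limma adjusted p = 0.213). Jak2, the kinase bound to the growth hormone receptor, had a mean ratio of -0.17, and Socs1, another inhibitor of cytokine signalling, had 0.37. Among examples taken for their roles after values were seen, the receptor Ghr had -0.86, -0.46, -0.56 and 0.31, and the transcription factor genes Stat5a and Stat5b had means of 0.24 and 0.11. Cebpa, which also belongs to the adipocyte list, had the lowest p of this list, with a mean ratio of -0.93 (SE 0.17, limma adjusted p = 0.136).

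In the glucocorticoid response list, 15 of 15 genes were measured and 15 had a mean ratio below 0, with a median of -0.34, but none passed the test. Mt2, a metallothionein, had the lowest p, with ratios of -0.56, -0.81, -0.50 and -0.48 (limma adjusted p = 0.114). Nr3c1, the glucocorticoid receptor, had a mean ratio of -0.44, and Pdk4, a kinase that restrains pyruvate oxidation, had -1.25. The array medians of this list, 0.09, -0.75, -0.46 and -0.48, did not follow the array order that the Mup family had after loess.

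The remaining lists held markers of other cells that fat or nearby tissue may contain. Their median ratios were 0.19 for macrophages (12 of 12 measured), -0.04 for lymphocytes (9 of 10), -0.32 for endothelium (12 of 12), -0.12 for salivary and lacrimal glands (4 of 13) and -0.001 for epididymis (3 of 8). The macrophage median was -0.21 with median centring, which moved the median of all names to -0.32, and the lymphocyte median was 0.20 without replicate 4, so neither sign held throughout. No gene of these lists, or of the mammary and muscle lists, passed the test. With the array as a random block, Cldn5, a tight junction gene of endothelium, did pass (ratios -1.51, -1.18, -1.42 and -0.72, limma adjusted p = 0.0317, against 0.114 in the fit of ratios). In salivary and lacrimal glands, which also make Mups, 5 listed genes were above background in 0 of 8 samples. Amy1, the amylase of those glands and of liver, had ratios of -1.36, -1.56, -1.31 and -0.42, and its limma adjusted p was 0.0198 with the array as a random block and 0.131 in the fit of ratios.

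The 10 names most like the Mup mean were taken by the highest r over 8 samples, and 72 of 25130 names outside the family had an r over 0.95. First were 2 names without annotation in the tables used, XR_390624 (r = 0.998) and ENSMUST00000098035 (r = 0.995). They were counted outside the family by name only, and whether they are copies of Mup genes is not known here. Their r as deviations was 0.99 and 0.96, and without replicate 4 it was 0.98 and 0.93. XR_390624 had ratios of -3.54, -4.64, -3.93 and -1.31, and its mean of -3.35 was the lowest of all names. ENSMUST00000098035 had -3.15, -4.22, -3.47 and -1.28, array values close to those of Mup3.

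Gpt2, the mitochondrial alanine aminotransferase, followed with r = 0.99 (rho 1.00, deviations 0.95, and 0.81 without replicate 4). It measured 9.68, 9.18, 9.28 and 9.86 in Ad/NICD and 11.24, 11.40, 11.25 and 10.70 in WT. Chst1, a carbohydrate sulfotransferase, had r = 0.99 with ratios of -1.11, -2.13, -1.51 and -0.76. Both had the array order that the Mup family had after loess, at a smaller size.

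Slc43a1, a transporter of large neutral amino acids, had r = 0.98 with ratios of -1.26, -1.77, -1.45 and -1.03, and its deviations without replicate 4 had r = 0.98. Mpst, a sulfurtransferase of cysteine breakdown, had r = 0.99 and a mean ratio of -0.66. Amy2a5, a pancreatic amylase gene whose sequence is close to that of Amy1, had r = 0.99, and its r as deviations was 0.90, or 0.53 without replicate 4. Klhl24, a ubiquitin ligase adaptor, and 2 probes for unannotated genomic regions completed the 10, with mean ratios between -0.40 and -0.18. None of the 10 passed the test (limma adjusted p between 0.0876 and 0.291).

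**Figure D5:**
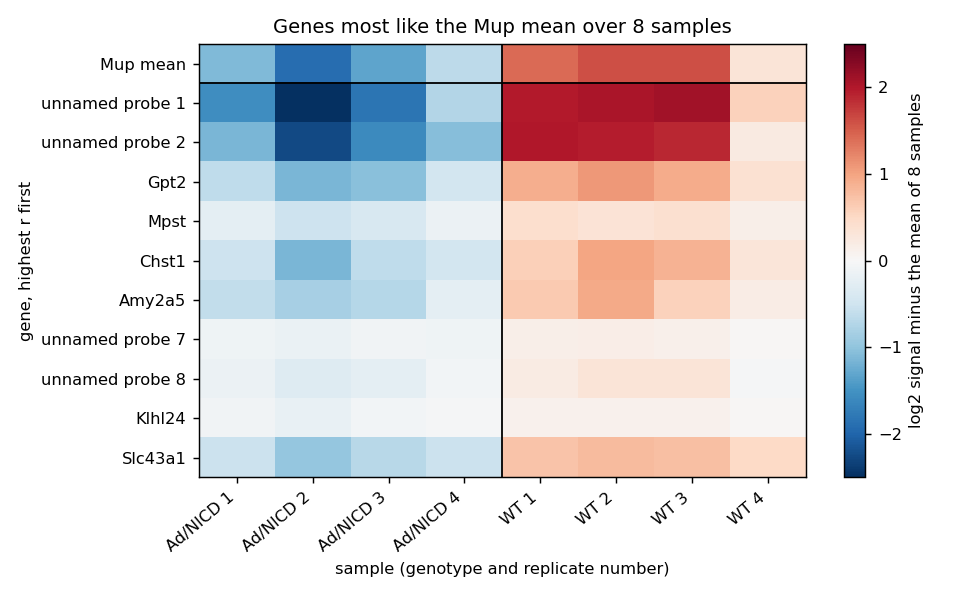
Log2 signal minus the mean of 8 samples (colour, blue below and red above) for the Mup mean and the 10 names with the highest r to it (rows, highest first), in Ad/NICD samples (left) and WT samples (right). All rows are lower in Ad/NICD than in WT replicates 1 to 3, with WT replicate 4 between them, and the first 2 unnamed probes span the widest range.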

How the data were processed

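White adipose tissue of 4 Ad/NICD and 4 WT mice was hybridised as pairs to 4 arrays with 2 colours. Per the submitters' processing notes, Agilent Feature Extraction 11.5 quantified the scans. The deposited scanner tables give intensity per spot (median foreground, median background, processed signal) and a log10 ratio of red over green, which was not used. The authors' deposited value table is on a log2 scale, each column being the processed signal of 1 channel minus a constant. Its use to set the direction followed from the values, and no step behind it is given in the sources used here.

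Background was corrected by normexp (offset 50) on median foreground and background, because mean foreground was not in the tables, and loess was fitted within each array, giving control spots no weight (limma 3.58.1, R 4.3.3). Levels also had quantile scaling of average brightness (Aquantile). A probe had to clear background on 3 or more of the 4 arrays, in either channel. Array 1 has no such flags, and they were rebuilt as a background-subtracted signal over 6 median absolute deviations of the negative controls, a rule that matched 98.29% to 99.99% of the scanner's own flags elsewhere. Of 55681 probes, 28026 took a symbol from RefSeq (GRCm38.p6, names and start-site windows only) and 27655 kept their name. The brightest of 34466 kept probes stood for each of 25141 names.

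Ratios were fitted against 0 with limma (lmFit, eBayes) and Benjamini-Hochberg adjustment over all names, the array being the pair. Deviations from group means of same-numbered samples correlated at 0.18, 0.17, 0.56 and 0.53, and for replicate 1 a sample of another number reached 0.28. Members and the 13 gene lists (187 genes, 146 measured) were chosen with earlier results of these data known. Named genes were all member probes, the 10 names with the highest r to the Mup mean, and in each list the genes past the threshold or up to 4 with the lowest p. The TATATAA motif, the probe sets and the examples so marked were chosen after values were seen. Alternatives were the offset, processed signals, median centring, the authors' table, no filter, every probe, trend and robust settings, fits without the pair or with it as a random block, Mup probes at weight 0, and leaving out each replicate.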

Additional observations from a re-analysis of the deposited data

Results flagged for a closer look

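WT replicate 4 lay far below the other 3 WT samples for 5 Mup probes and for the Mup mean, by Dixon's ratio of the gap to the range. Mup5, known also from glands of the head, measured 12.36 there, with the other WT samples between 14.40 and 14.64. Mup2, a near copy of Mup17 upstream of its start, measured 13.01, with the others between 14.64 and 14.88. Mup3 measured 11.08, with the others between 12.49 and 12.65.

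Both probes of Mup20, the gene of darcin, were among the 5. The bright one measured 13.28 in WT replicate 4, with the others between 14.33 and 14.51, and the dim one 7.61, with the others between 9.05 and 9.26. The Mup mean was 13.31, with the others between 14.41 and 14.61. All 6 flags come from 1 sample and from probes that share transcripts, and chance flags about 1 in 20 groups, of which 46 were examined.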

How the results depend on the processing

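The mean Mup ratio of -2.48 kept its sign and moved by less than 1 SD between arrays under all 12 alternatives, between -2.99 (without replicate 4) and -2.14 (without replicate 2). It was -2.82 with median centring in place of loess, which moved the median of all names to -0.32, and -2.48 with separate channels and no replicate block. Each of the 10 Mup probes kept a mean ratio below 0 in all 90 alternatives run on them. The Mup level in WT was 14.23 over all probes, 14.11 to 14.54 with a replicate left out, and 16.78 for the brightest probe alone, since it is another probe.

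The number of names called by limma, 12 (7 higher, 5 lower), depended on the setting, and the cause was not tested. It was 3 with processed signals and 3 with the authors' table (2 higher and 1 lower each). It was 0 with median centring, with trend and robust settings and with no filter (0 higher, 0 lower). Offset 16 gave 10 lower. Without the pairing (no replicate block) it was 256 (100 higher, 156 lower), and with the array as a random replicate block 496 (212 higher, 284 lower). Leaving out a replicate gave 0 to 43 calls, 0 to 9 higher and 0 to 34 lower.

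Median centring moved the medians of the endothelial list to -0.81, glucocorticoid to -0.77, growth hormone and STAT5 to -0.47, lipocalin to -0.64, salivary to -0.40 and the 1 measured sex-linked gene to -0.50. The hepatocyte median was -1.37 with processed signals and -1.39 with the authors' table, and that of the epididymis list 0.26 with each. The lipocalin median lay between -0.60 and -0.23 with a replicate left out.

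The limits are those of the design. The direction rests on the authors' table, dye and genotype share every array, and only 1 pair has the male pattern. Members share transcripts, and each was chosen on the contrast described. The alternative that leaves out saturated probes gave no value, because the tables carry no saturation flag.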
